A study of Mus musculus with 4 samples.

Results

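Vitamin D, parathyroid hormone (PTH) and fibroblast growth factor 23 (FGF23) act on the kidney through 9 genes described here: Cyp27b1, Cyp24a1, Cyp2r1, Vdr, Pth1r, Kl, Fgfr1, Fgfr3 and Fgfr4. They are members by symbol, for their known place in this endocrine axis, and the rule uses no measured value, although earlier results of these data were known when the set was drawn up. All 9 were found among the 24468 genes of a table that compares kidney cell clusters and among the 21312 genes of a table that compares treated with untreated proximal tubule nuclei. The kidneys came from male C57BL/6 mice, with ages not given in the sources used here. Among them, the untreated group, CT9w, had 2 samples. The treated group, Cis9w, had 2 samples from mice given 4 weekly injections of cisplatin at 8 mg/kg, with kidneys taken 9 weeks after the first injection. Cisplatin, a platinum drug used against tumours, damages proximal tubule cells. Nuclei were isolated from cortex together with outer medulla, and their RNA molecules were counted by unique molecular identifiers (UMIs).

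The kidney makes the active form of vitamin D, calcitriol, in the proximal tubule, where Cyp27b1 adds the last hydroxyl group to the precursor and Cyp24a1 breaks both the precursor and calcitriol down. PTH raises Cyp27b1, while FGF23 and calcitriol lower it and raise Cyp24a1. FGF23 binds an FGF receptor together with the co-receptor Klotho, the product of Kl, and both PTH and FGF23 reduce phosphate reabsorption in the proximal tubule, while PTH and calcitriol raise calcium reabsorption in the distal tubule.

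Both tables hold values pooled over nuclei by the authors, without columns for single samples. No spread between replicates could therefore be computed, and the intervals given here are 95% intervals that cover counting error only. In the labels the proximal tubule table is tied to replicate 1 of each group and the cluster table to replicate 2, so the proximal tubule comparison may rest on 1 animal per group. A level is an average of normalised UMIs per nucleus, and levels are compared for 1 gene at a time and within 1 table. The CT9w column held 5123727 UMIs and the Cis9w column 8557662, or 1.67 times as many, so that 3 UMIs correspond to a level of 0.00164 in CT9w and 0.000981 in Cis9w. The 17 clusters held between 254460 and 7425098 UMIs each, and 65.9% of their UMIs lay in the 6 proximal tubule (PT) clusters. Fewer nuclei with a transcript and less RNA per nucleus cannot be told apart in such averages. Markers were counted as passing in a cluster when, in the authors' deposited table, their log2 fold change was 1 or more with p under 0.05. By this measure 4 of 5 first-segment markers passed in PT-S1, 4 of 6 third-segment markers in each of PT-S3-1 and PT-S3-2, 6 of 6 injury markers in PT-injury/repair, and 5 of 5 distal convoluted tubule markers in DCT+CNT. In the cluster named CNT, 3 of 5 connecting tubule markers and 4 of 6 principal cell markers passed. The cluster named Mixed-1 passed 6 of 6 fibroblast and mural cell markers.

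The 9 genes lie on 8 chromosomes of the mouse build GRCm38 (mm10) in the GENCODE M21 annotation. Cyp27b1 spans positions 127048250 to 127053006 of chromosome 10 on the plus strand and overlaps no other gene. Cyp24a1 spans 170482708 to 170497145 of chromosome 2 on the minus strand, where Pfdn4 overlaps it on the opposite strand. Pth1r (chromosome 9, 110722085 to 110747145, minus strand) overlaps Myl3, Fgfr1 (chromosome 8, 25513654 to 25575718, plus strand) overlaps the antisense gene Gm16159, and Fgfr3 (chromosome 5, 33721674 to 33737068, plus strand) overlaps G630022F23Rik, each on the opposite strand. UMIs of these 4 genes may include reads of their partners, since strand use in the counting was not given in the sources used here. No gene overlaps Cyp2r1 (chromosome 7, 114549682 to 114562972, minus strand), Vdr (chromosome 15, 97854425 to 97910630, minus strand), Kl (chromosome 5, 150952607 to 150993817, plus strand) or Fgfr4 (chromosome 13, 55152640 to 55168759, plus strand).

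Because Cyp27b1 had the largest ratio between the groups, the 250 bases before its RefSeq start are shown from RefSeq's GRCm38.p6, 5′ to 3′ on the gene's plus strand, at chr10:127047996-127048245. Capitals mark the letters CCAAT on the reverse strand, beginning 86 bases before the start, and the letters TATATA, beginning 37 bases before it.
Cyp27b1: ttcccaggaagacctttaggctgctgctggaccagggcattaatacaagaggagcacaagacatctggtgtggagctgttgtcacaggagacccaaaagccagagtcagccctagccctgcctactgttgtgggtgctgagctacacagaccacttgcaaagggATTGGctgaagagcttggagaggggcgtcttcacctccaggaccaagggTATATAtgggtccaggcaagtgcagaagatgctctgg
These 2 motifs were searched after the sequence was seen. On both strands of all 32851 RefSeq windows of this length, CCAAT was found in 33.8% and TATATA in 5.25%. Windows were matched for 7 of the 9 genes, not for Cyp24a1 and Fgfr1, with 10 windows in all. The single hexamers that a vitamin D receptor can bind were searched on both strands, as was TGACG, the core of a cAMP response element. Of all windows, 4607 held AGGTCA, while AGTTCA was found in 11.8% of them, GGGTCA was in 11.6% and the last, GGTTCA, in 8.85%. Any of these 4 hexamers was found in 38.6% of all windows and TGACG in 17.8%. Neither was found in the Cyp27b1 window. A pair of hexamers in the same orientation with 3 bases between them, the classical vitamin D response element, was found in 0.0396% of all windows and in none of the 10. The matches are shown with 12 bases on each side, each on its gene's own strand and with the match in capitals.
Kl, chr5:150952502-150952531, plus strand, GGGTCA on the reverse strand: ccgacgtccctaTGACCCctgctgtgctct
Vdr, chr15:97908370-97908399, minus strand, AGTTCA on the reverse strand: gcttcagaggacTGAACTtagtgggcgtgg
Cyp2r1, chr7:114563064-114563093, minus strand, GGTTCA on the reverse strand, with an overlapping CCAAT also in capitals: gcccacactgaaTGAACCAATggccgtaga
Fgfr3, chr5:33722229-33722258, plus strand, GGTTCA: gccgggggtcggGGTTCAggagcgaggccg
Pth1r, chr9:110747290-110747318, minus strand, TGACG on the reverse strand: aagggcgaggggCGTCAactgaggcagag
A match of letters is a description of the sequence and not a binding site.

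In proximal tubule nuclei, both enzymes that set the level of calcitriol were higher in Cis9w than in CT9w, while none of the receptors passed the test. Of the 9 genes, 2 had a p under 0.05 with a higher level in Cis9w in the authors' deposited table, Cyp27b1 and Cyp24a1, where 0.995% of all genes tested did. None was lower, where 1.14% of all genes were. At p under 0.01 both remained called, where 0.535% of all genes were higher and 0.727% lower. The median log2 fold change of the 9 was 0.03, against 0.04 over all genes. At the median level of all genes, 0.0154, 8 of the 9 were kept, and Cyp27b1 reached it through Cis9w only.

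Cyp27b1, the activating enzyme, had 6 UMIs in CT9w and 122 in Cis9w, or levels of 0.00328 and 0.0399. The Cis9w level was 12.2 times the CT9w level (interval 5.43 to 33.8), and the log2 fold change was 3.40 with p = 1.41e-07 in the authors' deposited table. Its lower level thus rests on a handful of molecules, and the interval of the ratio is wide. Cyp24a1, the inactivating enzyme, had 429 UMIs in CT9w and 1755 in Cis9w, or levels of 0.234 and 0.574. Its ratio was 2.45 (2.20 to 2.73), with a log2 fold change of 1.29 and p = 0.00100 in the authors' deposited table. The enzymes that make and remove calcitriol were both higher in the same pool, and the interval of the Cyp27b1 ratio lay wholly above that of Cyp24a1. This gap depends on the low Cyp27b1 level: with a pseudocount at the median of all levels (0.0202), the log2 fold change was 1.36 for Cyp27b1 and 1.22 for Cyp24a1. Cyp2r1, which carries out the preceding hydroxylation, chiefly in liver, had 10 and 23 UMIs. Its ratio of 1.38 had an interval of 0.630 to 3.24, which held 1, so that no difference was detectable at this depth.

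**Figure D1:**
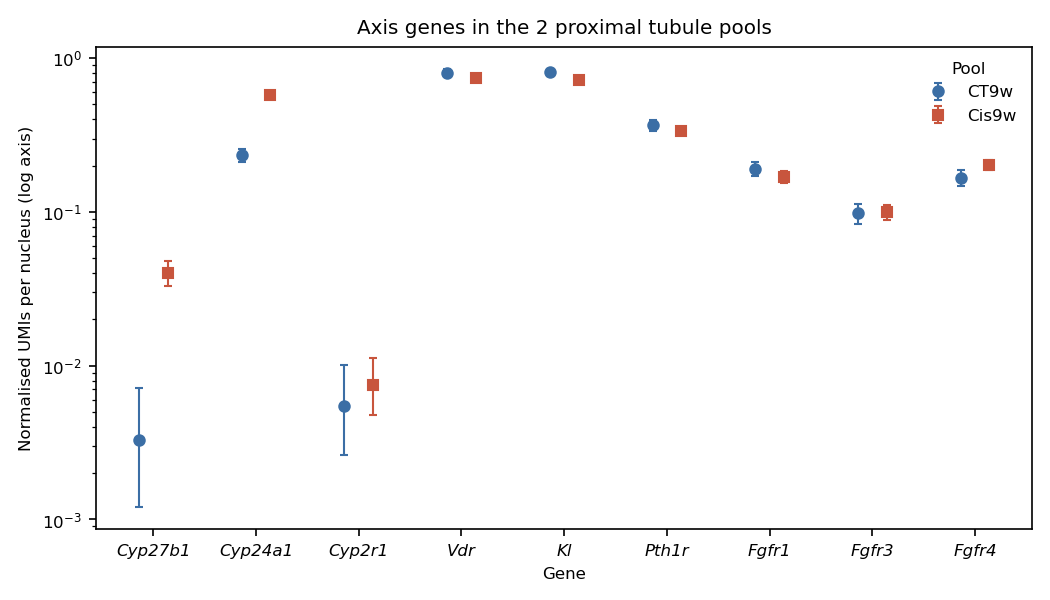
Level of each of the 9 genes (normalised UMIs per nucleus, log axis) in the pooled CT9w and Cis9w proximal tubule nuclei, with 95% counting intervals as bars. Cyp27b1 goes from 0.00328 to 0.0399 and Cyp24a1 from 0.234 to 0.574, while the levels of the receptors and of Kl lie close together in both pools.

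The genes of the receptors and of Klotho had p = 1 in the authors' deposited table. Vdr, the nuclear receptor for calcitriol, had a level of 0.806 in CT9w and 0.740 in Cis9w, or 0.918 times as much (0.860 to 0.981). Kl had 0.808 and 0.716, a ratio of 0.885 (0.828 to 0.946). For both genes the counting interval lay below 1, but the difference was small and its spread between animals is not known. Pth1r, the receptor for PTH, had 0.365 and 0.338, a ratio of 0.926 (0.839 to 1.02). Of the FGF receptors, which are tyrosine kinases, Fgfr1 had 0.191 and 0.168, a ratio of 0.882 (0.768 to 1.01). Fgfr3 had 0.0977 and 0.0997, a ratio of 1.02 (0.845 to 1.23). Fgfr4 had 0.166 and 0.202, a ratio of 1.21 (1.05 to 1.39). Every receptor ratio thus lay between 0.882 and 1.21, the intervals of Pth1r, Fgfr1 and Fgfr3 held 1 and that of Fgfr4 lay above it.

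**Figure D2:**
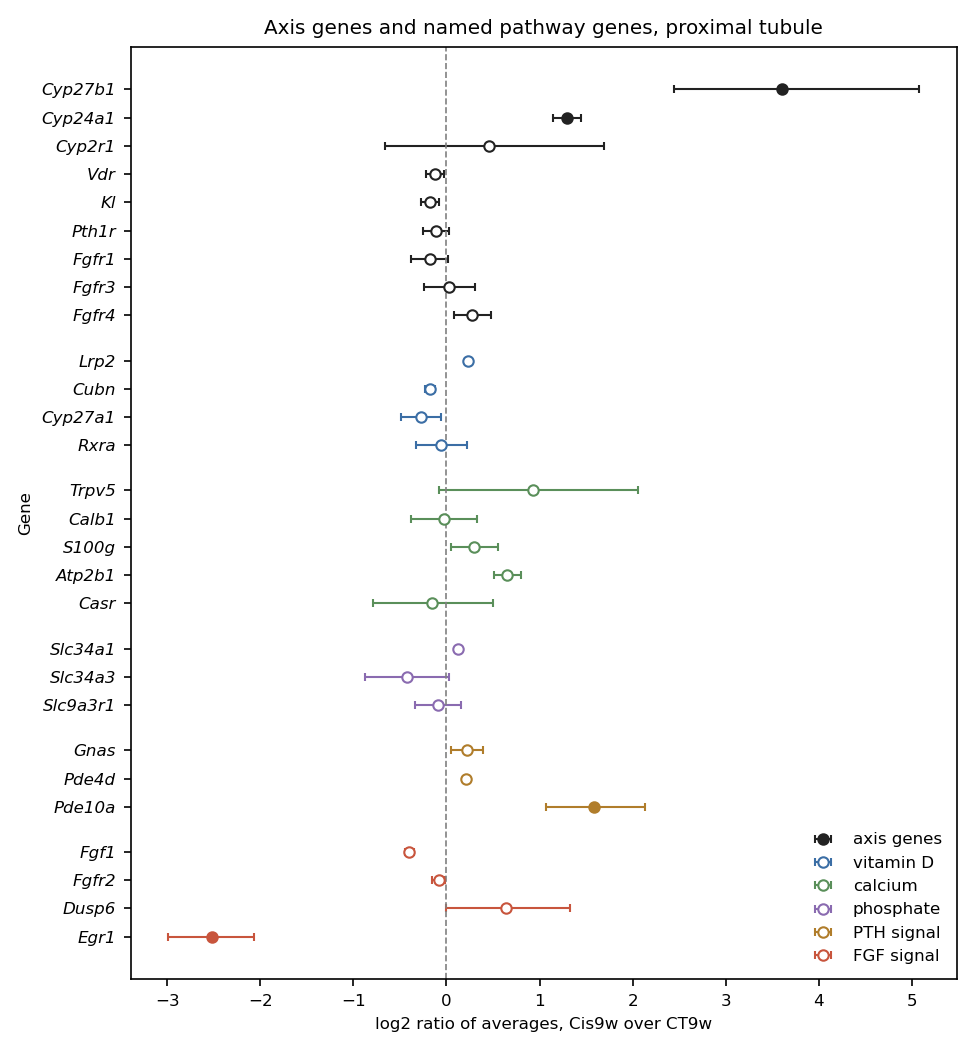
Ratio of the Cis9w level to the CT9w level in proximal tubule nuclei, as log2 with 95% counting intervals. The 9 genes are shown with named genes of the lists around the axis. Filled points passed the deposited test and open points did not. Of the 9 genes, Cyp27b1 (ratio 12.2) and Cyp24a1 (ratio 2.45) lie furthest to the right.

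Summed levels of markers of cell states and cell types also differed between the same pools. Of 6 markers of the third proximal tubule segment, 5 fell (p below 0.05 in the authors' deposited table), and their summed level went from 9.75 in CT9w to 3.18 in Cis9w. Of 6 markers of injured proximal tubule, 5 rose in that table, and their summed level went from 0.173 to 0.743, with Krt20 and Sox9 at 0 UMIs in CT9w. Of 5 first-segment markers none passed, and their summed level went from 8.46 to 10.2, a ratio of 1.21. Of 5 connecting tubule markers none passed, and their summed level went from 1.02 to 1.70, or without Slc8a1 from 0.298 to 0.374. The sums of distal convoluted tubule and immune markers were 0.868 and 0.728 times as high in Cis9w, with no gene called. The fall of the immune sum, from 0.114 to 0.0830, rested on Csf1r, which gave most of it and went from 0.0950 to 0.0471. Ptprc was instead 2.87 times as high (1.44 to 6.37). The intervals of Cd74 (1.66), Adgre1 (1.80), C1qa (0.998) and Cd3e (0.299) held 1. The sum of the 5 thick ascending limb markers was 0.951 times as high, or 0.678 without Cldn10, which gave most of that sum. Umod was at 0.656, Slc12a1 at 0.681 and Ptger3 at 0.665, and none of the 5 was called. The sums of principal cell, intercalated cell, podocyte, endothelial and fibroblast markers were 1.86, 2.30, 2.06, 1.51 and 1.61 times as high, with Scnn1b and Synpo the genes called higher and Col1a1 at 0 UMIs in CT9w. The part of these shifts in the Cyp27b1 and Cyp24a1 results was not tested.

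Across the 17 clusters, which pool nuclei of both groups, 8 of the 9 genes had their highest levels in proximal tubule, distal tubule or podocyte clusters. The highest level of Cyp2r1, in immune cells, rested on 4 UMIs. The 2 calcitriol enzymes had their highest levels in PT-S1, Fgfr4 in PT-S3-2, and Fgfr3 in PT-S3-1 with PT-S1 close behind. Vdr and Kl were highest in the distal tubule, Pth1r in podocytes, and Fgfr1 in podocytes with Mixed-1 close behind. Of each gene's UMIs in the 17 clusters, the 6 proximal tubule clusters held 96.0% for Cyp27b1, between 94.3% and 95.6% (95% interval) for Cyp24a1, 92.7% for Fgfr3 and 91.0% for Fgfr4. They held 77.6% for Pth1r, 70.0% for Vdr, 64.2% for Cyp2r1, 58.9% for Fgfr1 and 58.6% for Kl. The median over 13433 genes with at least 100 UMIs was 62.8%, with quartiles of 53.8% and 70.3%. The first 5 of these 9 shares thus lay above the upper quartile and none lay below the lower one.

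**Figure D3:**
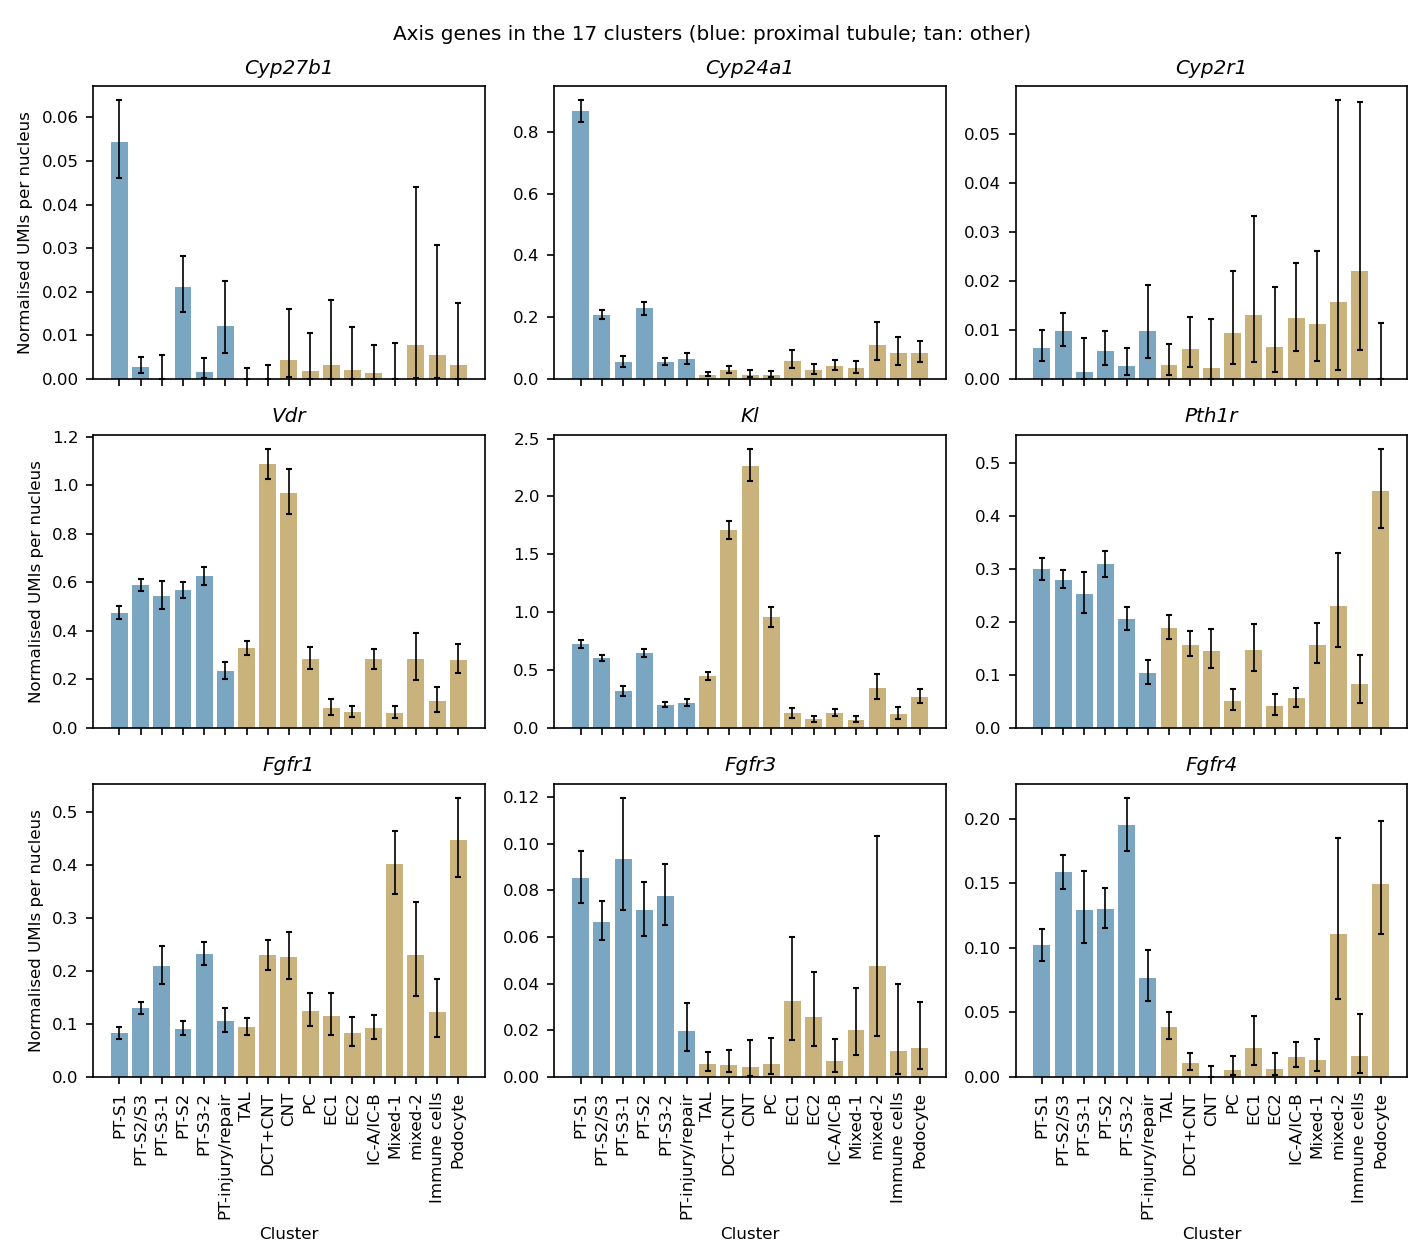
Level of each of the 9 genes in the 17 clusters (normalised UMIs per nucleus), with 95% counting intervals and a separate scale for each gene. Cyp24a1 reaches 0.868 in PT-S1 against 0.229 in PT-S2, and Kl reaches 2.27 in CNT against 0.727 in PT-S1.

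In PT-S1, 3 of the 9 genes were higher than in all other nuclei at p under 0.05 in the authors' deposited table, where 2.9% of all genes were, namely Cyp27b1, Cyp24a1 and Fgfr3. None was lower there, where 9.77% of all genes were. Cyp27b1 had 147 of its 224 UMIs in PT-S1, a level of 0.0545, with a log2 fold change of 3.46 and p = 4.24e-23 in the authors' deposited table. It had 45 UMIs in PT-S2 (level 0.0211) and 10 in PT-injury/repair (0.0122), and the level in PT-S1 was 2.58 times that in PT-S2 (1.84 to 3.69). PT-S3-1, TAL, DCT+CNT and Mixed-1 had 0 UMIs, which at 3 UMIs allows levels of up to 0.00451, 0.00207, 0.00265 and 0.00671. Only 1 of 13 neighbouring pairs in the order of its levels differed beyond counting error, PT-S1 and PT-S2. Cyp24a1 had 2342 UMIs in PT-S1, a level of 0.868, with a log2 fold change of 2.95 and p = 4.42e-26 in the authors' deposited table. It followed with 0.229 in PT-S2 and 0.208 in PT-S2/S3, and was lower in PT-injury/repair (0.0635), PT-S3-2 (0.0560) and PT-S3-1 (0.0542). The level in PT-S1 was 3.80 times that in PT-S2 (3.44 to 4.19), and the lowest level, 0.0132, was in PC. Cyp2r1 had 123 UMIs over all clusters, and no neighbouring pair in its order differed and no cluster was called.

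The distal tubule held the highest levels of Vdr and Kl. In DCT+CNT, 2 of the 9 genes were higher than in all other nuclei in the authors' deposited table, where 3.9% of all genes were, and 4 were lower, where 5.44% were. Vdr had a level of 1.09 in DCT+CNT, with a log2 fold change of 1.17 and p = 0.0386 in the authors' deposited table. It had 0.970 in CNT, between 0.475 and 0.625 in the 5 proximal tubule clusters other than PT-injury/repair, 0.329 in TAL, 0.236 in PT-injury/repair and 0.0626 in Mixed-1, its lowest. The level in DCT+CNT was 1.12 times that in CNT (1.00 to 1.25), just beyond counting error, and 5 of 16 neighbouring pairs in the order differed so. Kl had its highest level in CNT, 2.27, with p = 0.0261 in the authors' deposited table, where 1 of the 9 genes was higher against 1.43% of all genes, and 1, Fgfr4, was lower against 0.119%. Kl then had 1.71 in DCT+CNT (log2 fold change 1.65, p = 0.000489 in the authors' deposited table), 0.956 in PC, 0.727 in PT-S1, 0.644 in PT-S2, 0.604 in PT-S2/S3 and 0.447 in TAL. The CNT level was 3.12 times that in PT-S1 (2.89 to 3.37). Within the proximal tubule Kl was lower along the later segment, with 0.319 in PT-S3-1 and 0.201 in PT-S3-2, and the latter had a log2 fold change of -1.67 and p = 0.00578 in the authors' deposited table. Free RNA adds UMIs to every cluster of a droplet assay. The lowest Kl level of any cluster was 0.0715, in Mixed-1, and the part of free RNA in these levels was not tested.

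Pth1r was spread widely and was called in no cluster. Its level was 0.446 in podocytes, 0.308 in PT-S2, 0.300 in PT-S1, 0.280 in PT-S2/S3, 0.253 in PT-S3-1 and 0.205 in PT-S3-2. It was 0.188 in TAL, 0.104 in PT-injury/repair and 0.0409 in EC2, its lowest. Podocytes and PT-S2 differed beyond counting error, and 2 of 16 neighbouring pairs did so in all. Although the Pth1r level in podocytes was highest, that cluster had 143 of its 4032 UMIs, and p was 1 in the authors' deposited table.

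Of the 3 FGF receptors, Fgfr3 and Fgfr4 had 92.7% and 91.0% of their UMIs in the proximal tubule clusters, and Fgfr1 had 58.9%. Fgfr1 was highest in podocytes (0.446) and Mixed-1 (0.400), then 0.232 in PT-S3-2, 0.229 in DCT+CNT and 0.225 in CNT, with 0.0822 in PT-S1 and 0.0819 in EC2, its lowest. No cluster was called for Fgfr1, and the smallest p in the authors' deposited table was 0.0709, in Mixed-1. Fgfr3 was between 0.0665 and 0.0933 in the 5 proximal tubule clusters other than PT-injury/repair and 0.0195 in that cluster, and PT-S1 was called higher (0.0852, log2 fold change 0.87, p = 0.0320 in the authors' deposited table). No neighbouring pair in its order differed beyond counting error, and TAL and DCT+CNT were called lower. Fgfr4 was 0.195 in PT-S3-2 (log2 fold change 1.11, p = 0.00907) and 0.158 in PT-S2/S3 (0.87, p = 0.00713), both called higher in the authors' deposited table. It was 0.150 in podocytes, 0.102 in PT-S1 and 0.0769 in PT-injury/repair, and it had 0 UMIs in CNT, where 3 UMIs would give 0.00663. Fgfr1 and Fgfr4 thus had a higher level in PT-S3-2 than in PT-S1, whereas the intervals of Fgfr3 in these clusters (0.0652 to 0.0913 and 0.0746 to 0.0970) overlapped.

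In PT-S3-2, 1 of the 9 genes was higher in the authors' deposited table, where 3.62% of all genes were, and 3 (Cyp27b1, Cyp24a1 and Kl) were lower, where 7.5% were. In PT-S2/S3 the counts were 1 higher (Fgfr4), against 3.05%, and 1 lower (Cyp27b1), against 13%. In TAL none was higher, against 5.27%, and 3 (Cyp27b1, Cyp24a1 and Fgfr3) were lower, against 5.52%. In the other 11 clusters none of the 9 genes was called. Apart from PT-injury/repair, whose shares follow, the authors' deposited table called higher 1.02% of all genes in PT-S2, 0.327% in PT-S3-1, 3.14% in PC, 3.39% in EC1, 5.84% in EC2, 3.27% in IC-A/IC-B, 6.16% in Mixed-1, 0.0899% in mixed-2, 4.25% in immune cells and 1.74% in podocytes. It called lower 7.63% in PT-S2, 1.08% in PC, 0.507% in EC2, 1.84% in IC-A/IC-B, 0.196% in Mixed-1 and 0% in the others of these. Of the 153 pairs of a gene and a cluster, 8 were called higher and 12 lower, where 3.18% and 3.13% of the pairs of all genes were. At p under 0.01 they were 5 and 9, where 2.26% of all pairs were higher and 2.26% lower.

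PT-injury/repair, the proximal tubule cluster that carried the injury markers, had lower levels of most of the 9 genes than the 5 other proximal tubule clusters combined. The ratio was 0.187 for Cyp24a1 (0.140 to 0.246), 0.259 for Fgfr3 (0.147 to 0.423), 0.376 for Pth1r (0.299 to 0.466), 0.390 for Kl (0.334 to 0.452) and 0.420 for Vdr (0.362 to 0.485). It was 0.537 for Fgfr4 (0.410 to 0.690) and 0.795 for Fgfr1 (0.632 to 0.988), while the intervals of Cyp27b1 (0.656, 0.310 to 1.23) and Cyp2r1 (1.52, 0.630 to 3.15) held 1. Vdr, Pth1r, Fgfr3 and Fgfr4 were lower in PT-injury/repair than in each of the 5 other clusters. Cyp24a1 (0.0635), Kl (0.217) and Fgfr1 (0.105) were not below the lowest of the 5, at 0.0542, 0.201 and 0.0822. Neither were Cyp27b1 and Cyp2r1. In all, 8 of 9 ratios to the 5 clusters combined were below 1, with a median of 0.420. Among 11423 genes with at least 100 UMIs in these clusters, 44.4% were below 1 and the median was 1.07. Cyp2r1, the gene with a ratio above 1, had 79 UMIs there and so lay below that minimum. The deposited test of this cluster, which compares it with all other nuclei, called none of the 9 genes, where it called 4.61% of all genes higher and 0.621% lower.

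Levels over the 17 clusters ran most alike for Vdr and Kl, with Pearson r = 0.84 and Spearman rho = 0.80 of log2 levels. Cyp27b1 and Cyp24a1 had r = 0.74 (rho 0.66), Fgfr3 and Fgfr4 also r = 0.74 (rho 0.70), Cyp24a1 and Fgfr3 r = 0.73, and Pth1r and Fgfr4 r = 0.69. The lowest values were -0.49 for Cyp2r1 with Pth1r and -0.46 for Cyp2r1 with Vdr. Cyp2r1 had 123 UMIs over all clusters, and no neighbouring pair in its order differed beyond counting error. Its correlations, and its nearest genes given below, may therefore rest on counting error and the depth of the pools. These correlations describe 17 pools that share nuclei preparations and differ in depth. Among the 13433 genes with at least 100 UMIs, the 3 whose pattern over the clusters was nearest by Pearson r were as follows. For Cyp24a1 they were Gm31718 (0.95), Lpar3 (0.95) and Nox4 (0.94), and for Vdr they were Ush1c (0.95), Ggnbp1 (0.92) and D630024D03Rik (0.92). For Fgfr3 they were Fmo1 (0.98), Ndel1 (0.97) and Abcg2 (0.95), and for Fgfr4 they were Iah1 (0.94), Tnfrsf21 (0.93) and Sult1d1 (0.92). For Kl they were Cnnm1, Kcnj16 and Cpt1a, each at 0.87, and for Pth1r they were Ptprd (0.86), Mapt (0.85) and Slc25a48 (0.83). For Cyp2r1 they were Gpalpp1 (0.85), Dus2 (0.81) and Esco1 (0.81). For Cyp27b1 they were D630023F18Rik, 4921539H07Rik and 4930458D05Rik, each at 0.85. For Fgfr1 they were Gm16159 (0.81), Creb3l1 (0.78) and 6530403H02Rik (0.75), and the first of these is the gene that overlaps Fgfr1 on the other strand.

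The genes around the axis were read from 7 lists of 97 entries, of which 92 were in the proximal tubule table. Of these 92, 1 was higher and 1 was lower in Cis9w at p under 0.05 in the authors' deposited table, where 0.995% and 1.14% of all genes were. The median log2 fold change of the 92 was 0.02, against 0.04 for all genes. Pth and Fgf23, the genes of both hormones, are made outside the kidney and were in neither table, and neither were Cyp3a11 and Cyp3a25. Pthlh was not in the proximal tubule table.

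**Figure D4:**
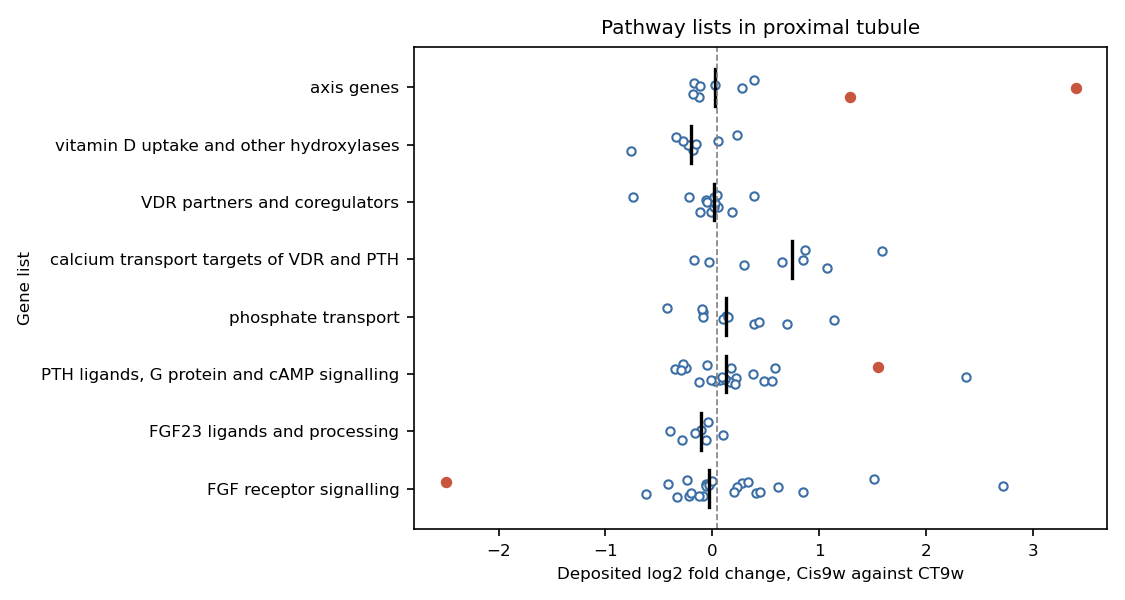
Deposited log2 fold change (Cis9w against CT9w, proximal tubule nuclei) of the axis genes and of every gene in the 7 lists around the axis. Red points passed the deposited test at p under 0.05, black bars are list medians and the dashed line is the median of all genes, 0.04. Red points are Cyp27b1 and Cyp24a1 among the axis genes, and Pde10a (higher in Cis9w) and Egr1 (lower) in the lists. Of the 7 lists, calcium transport has the highest median, 0.75.

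Calcium transport genes, which calcitriol and PTH act on in the distal tubule, had the highest median log2 fold change of the 7 lists, 0.75, with none of 8 called. With Trpv6, which had 0 UMIs in CT9w and 4 in Cis9w, set at its bound of 3 UMIs in CT9w, the median was 0.47. Their summed level went from 1.22 to 2.02, and most of the difference lay in 1 gene, Slc8a1, a sodium-calcium exchanger named here after its values were seen. Slc8a1 had levels of 0.727 and 1.32, a ratio of 1.82 (1.71 to 1.94) with p = 0.878 in the authors' deposited table. Without it the sum went from 0.492 to 0.696, or 1.41 times as high. Atp2b1, a calcium pump of the plasma membrane, had 537 UMIs in CT9w and 1408 in Cis9w, and the ratio of levels was 1.57 (1.42 to 1.74) with p = 0.339 in the authors' deposited table. S100g, the intracellular calcium carrier calbindin-D9k, had a ratio of 1.23 (1.03 to 1.46). Trpv5, the apical calcium channel of the distal tubule, had 11 and 35 UMIs, a ratio of 1.90 (0.946 to 4.16), and Calb1, the carrier calbindin-D28k, had 0.981. Across the clusters 7 of the 8 genes of this list had their highest level in a distal cluster, with Trpv5 at 0.608 in CNT and Calb1 at 2.18 in DCT+CNT, and 4 of the 5 connecting tubule markers above are in this list. The summed connecting tubule markers were 1.66 times as high in Cis9w, or 1.26 times without Slc8a1, and their part in this median was not tested.

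Of the genes for vitamin D uptake and the other hydroxylases, none of 8 was called, with a median log2 fold change of -0.20. The log2 fold changes of this list ran from -0.76 to 0.23. Lrp2 (megalin), which takes up the vitamin D binding protein from the filtrate, had a ratio of 1.18 (1.15 to 1.20), its partner Cubn (cubilin) 0.883 (0.851 to 0.917), and Cyp27a1, a hydroxylase of mitochondria, 0.827 (0.713 to 0.961). Of the 13 partners and coregulators of VDR none was called, with a median of 0.01, and Rxra, which pairs with VDR on DNA, had a ratio of 0.963. The calcium-sensing receptor gene Casr had 36 and 54 UMIs in the proximal tubule pools, a ratio of 0.898, and its highest cluster level was 1.30 in TAL.

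Phosphate transport genes, the targets of PTH and FGF23, had a median of 0.13 with none of 11 called. Slc34a1, the main phosphate transporter of the proximal tubule, had a ratio of 1.09. Slc34a3, a second transporter of this family, had 78 and 97 UMIs and a ratio of 0.745 (0.547 to 1.02). Slc9a3r1, which anchors Slc34a1 at the brush border, had 0.940. Slc34a1 and Slc34a3 both had their highest cluster level in PT-S1, at 12.4 and 0.103, the cluster where Cyp27b1 and Cyp24a1 were highest as well.

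Downstream of the PTH receptor, 1 of 22 genes was called higher and none lower, with a median of 0.13. That gene was Pde10a, a phosphodiesterase that breaks down cyclic nucleotides, with 37 UMIs in CT9w and 185 in Cis9w, with levels in the ratio 2.99 (2.09 to 4.39) and p = 0.0486 in the authors' deposited table. Its highest cluster level was 1.36 in PC, and the summed principal cell markers were 1.86 times as high in Cis9w. Their part in the Pde10a result was not tested. Gnas, the stimulatory G protein subunit, had a ratio of 1.16 (1.03 to 1.31), and Pde4d, a phosphodiesterase for cAMP, had 1.15.

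Of 23 genes of FGF receptor signalling, 1 was called lower and none higher, with a median of -0.03. With Etv4 (0 UMIs in CT9w, 10 in Cis9w) at its bound and Klb left out, the median was -0.05. Egr1, an immediate early gene induced by FGF receptor and other signals, had 178 UMIs in CT9w and 52 in Cis9w, and its CT9w level was 5.72 times its Cis9w level (4.18 to 7.95), with p = 1.10e-10 in the authors' deposited table. Dusp6, a feedback phosphatase of the same pathway, had 28 and 73 UMIs, a ratio of 1.56 (0.997 to 2.51) with p = 0.962 in the authors' deposited table. These ratios lay on opposite sides of 1. Fgfr2 had a ratio of 0.943, and Klb, the co-receptor related to Klotho, had 0 and 2 UMIs. Among the 7 genes of other FGF ligands and of FGF23 processing none was called, with a median of -0.10. Fgf1, a ligand that binds all FGF receptors, had 5907 and 7481 UMIs, a ratio of 0.758 (0.733 to 0.785) with p = 0.915 in the authors' deposited table, and its highest cluster level was 5.61 in PT-S3-2.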

How the data were processed

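Single-nucleus RNA of 4 kidney samples, 2 per group, was counted in a droplet 3' assay, per the labels' protocols. The submitters' processing notes name Cell Ranger 5.0.1 and mm10. How nuclei were filtered and clustered, how doublets and free RNA were handled, and which test and adjustment gave the p-values were not given in the sources used here. Per the file headers, each of the 2 deposited tables gives 3 kinds of value per gene and comparison, an average, a log2 fold change and its p-value. Averages are in units of signal (normalised UMIs per nucleus), which the authors scaled so that columns sum to 2797 (proximal tubule) and 2008 (clusters). The deposited log2 fold change sets Cis9w against CT9w, or 1 cluster against all other nuclei, and the deposited p-value is 1 for 82.4% of proximal tubule genes.

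UMI sums were recovered from the averages, since 99.995% or more of the values in a column lie within 0.1 UMI of a whole multiple of its smallest step. This count recovery and the intervals were tested on simulated data. Levels were given exact Poisson intervals and ratios Clopper-Pearson intervals. A count test could not be fitted, since each group has 1 column. A gene was called at a deposited p under 0.05. IDs of 21288 and 24432 genes matched GENCODE M21. Correlations used log2 averages with a pseudocount of 0.00176. Python 3.11.15, numpy 2.4.6, pandas 2.3.3, SciPy 1.17.1 and matplotlib 3.10.9 were used. Promoter windows came from RefSeq (GRCm38.p6).

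The 9 genes and all lists were chosen with earlier results of these data known. Named genes were the 9, 21 fixed genes of the lists (2 of them in neither table), up to 3 called rises and falls per list, and the 3 genes nearest each member. Trpv6, Slc8a1, Etv4 and marker genes were named beside values that rest on them. Other settings were a stricter p (0.01), a minimum log2 fold change of 1, the median level as a floor, subtraction of the median, other pseudocounts, totals without the 50 highest genes, other ranks of clusters and Spearman correlation.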

Additional observations from a re-analysis of the deposited data

How the results depend on the processing

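Cyp27b1 and Cyp24a1 remained the 2 of 9 genes called higher in Cis9w, with none called lower, at a deposited p under 0.01 and with a minimum log2 fold change of 1. A floor or the subtraction of the median could not add a call, since calls rest on the deposited p. At p under 0.01 in the deposited tables, the pathway lists had 0 higher calls in place of 1, the lost call being Pde10a. Pairs of gene and cluster called higher went from 8 to 5 and those called lower from 12 to 9. Over all genes, 2.26% of such pairs were higher and 2.26% lower at p under 0.01. Ranked by share of UMI sums, 2 of 9 genes kept their highest cluster, and the other 7 moved to PT-S2/S3, the cluster with the most UMIs. Of the 27 genes nearest the 9, 10 remained with Spearman correlation and 15 with the median level as pseudocount. Over 120 combinations of a gene and a setting, from 29 genes, 114 kept the value within counting error, 5 moved, 1 lost its call and 0 reversed. With a pseudocount at the median level (0.0202) the log2 fold change was 1.36 for Cyp27b1, 1.00 for Pde10a and -1.66 for Egr1, and with the median subtracted it was 0.10 for Slc34a1 and 0.18 for Pde4d. Leaving out replicates was not run, since no column holds a single sample. No paired analysis was possible because each group has 1 pooled column in the proximal tubule table. Depth limits Cyp27b1 in CT9w (6 UMIs) and Cyp2r1 in both groups (10 and 23 UMIs).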
